A study of Homo sapiens with 12 samples.

Results

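Claspin, the product of CLSPN, and the other proteins of the ATR-CHK1 fork checkpoint were followed at the mRNA level through 10 genes: CLSPN, CHEK1, ATR, ATRIP, TIMELESS, TIPIN, TOPBP1, RAD17, RAD9A and WEE1. These genes, and the lists of related genes below, were chosen by name with earlier results of these data known. All 10 were found by gene symbol among the 20308 genes of the expression table, and all 10 were among the 12757 genes tested. The cells were C4-2, an established human line of castration-resistant prostate cancer. One group carried an ALKBH5 overexpression construct (oeALKBH5) and the other an empty vector control (NC). ALKBH5 is an enzyme that removes the methyl mark N6-methyladenosine (m6A) from RNA. The promoter of the construct, and whether the cells were a clone or a pool, are not given in the sources used here. Each group had 3 input libraries, which are total RNA after removal of ribosomal RNA, and these are the libraries described here. They belong to a series of 12 libraries, whose 6 m6A pull-down libraries were not analysed here because their peak lists carry positions in the genome build hg19 and no genes. Nothing in the labels ties the replicates to independent cultures, and p-values here cover the spread among these libraries alone, possibly a technical one.

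Values are FPKM, fragments scaled by transcript length and by the mapped fragments of each library, and their sums ran from 511333 to 524905 per library. Absolute depth is unknown. Relative depth, estimated for low genes as their most frequent ratio to NC replicate 1, ran from 0.785 in oeALKBH5 replicate 2 to 1.13 in NC replicate 2, and rested on 7 to 24 of 199 genes in the other 5 libraries. ALKBH5 itself stood at 80.3, 74.3 and 72.5 FPKM in oeALKBH5 replicates 1, 2 and 3, against 64.9, 61.1 and 58.2 FPKM in NC replicates 1, 2 and 3. The groups did not overlap, but ALKBH5 did not pass the test over all genes (limma adjusted p = 0.114). All 10 markers of the prostate line were present, from 52.3 to 1020 FPKM, and their summed level ran from 2470 to 2729 FPKM in oeALKBH5 and from 2475 to 2513 FPKM in NC libraries. Of these 10, KRT8, a keratin of luminal epithelium, was called higher in oeALKBH5 (log2 fold change 0.70, limma adjusted p = 0.00242). Of 7 fibroblast markers 2 were listed at 0 in every library, and their sum ran from 4.08 to 28.1 FPKM in oeALKBH5 and from 4.2 to 13 FPKM in NC libraries. Of 9 immune cell markers 3 were at 0 in every library. The sum of all 9 ran from 4.28 to 8.32 FPKM in oeALKBH5 and from 0.521 to 2.99 FPKM in NC libraries. These sums were low but did not overlap, with oeALKBH5 higher, and none of the 3 immune markers tested was called.

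The checkpoint answers stalled replication forks. Single-stranded DNA coated by RPA recruits the kinase ATR through its partner ATRIP, while RAD17 loads a ring-shaped clamp that contains RAD9A, and the clamp brings TOPBP1, which switches ATR on. Claspin travels with the fork beside TIMELESS and TIPIN and holds the kinase CHK1, the product of CHEK1, so that ATR can phosphorylate it. CHK1 and the kinase WEE1 then restrain cyclin-dependent kinases, which slows origin firing and delays mitosis until the fork is repaired. CLSPN is a gene of the G1/S programme driven by E2F transcription factors in proliferating cells.

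The promoter windows below show where the start sites of 3 of the genes do and do not carry the E2F motif, since CLSPN and TIMELESS were the lowest in oeALKBH5 relative to NC and TOPBP1 was close to level. They are RefSeq sequences of the build GRCh38.p14 (250 bases before the start site and 50 after it), read 5′ to 3′ on the gene's strand. Capitals mark the E2F motif, as TTTCCCGC, TTTCGCGC, TTTGCCGC or TTTGGCGC on either strand, and the CCAAT box, as CCAAT on either strand. The windows lie at chr1:35769929-35770228 for CLSPN, chr12:56449377-56449676 for TIMELESS and chr3:133661892-133662191 for TOPBP1, all on the minus strand.
CLSPN: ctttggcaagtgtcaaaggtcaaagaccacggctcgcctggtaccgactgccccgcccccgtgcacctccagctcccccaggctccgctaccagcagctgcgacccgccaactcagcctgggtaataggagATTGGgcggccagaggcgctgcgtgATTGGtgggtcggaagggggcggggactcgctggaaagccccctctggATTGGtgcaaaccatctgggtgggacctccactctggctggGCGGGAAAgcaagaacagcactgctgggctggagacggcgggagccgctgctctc
TIMELESS: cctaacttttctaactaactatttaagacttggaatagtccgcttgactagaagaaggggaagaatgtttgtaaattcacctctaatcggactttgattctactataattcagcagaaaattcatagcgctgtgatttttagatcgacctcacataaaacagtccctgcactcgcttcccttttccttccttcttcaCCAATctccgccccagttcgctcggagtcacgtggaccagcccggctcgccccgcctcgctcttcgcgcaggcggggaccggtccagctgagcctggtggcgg
TOPBP1: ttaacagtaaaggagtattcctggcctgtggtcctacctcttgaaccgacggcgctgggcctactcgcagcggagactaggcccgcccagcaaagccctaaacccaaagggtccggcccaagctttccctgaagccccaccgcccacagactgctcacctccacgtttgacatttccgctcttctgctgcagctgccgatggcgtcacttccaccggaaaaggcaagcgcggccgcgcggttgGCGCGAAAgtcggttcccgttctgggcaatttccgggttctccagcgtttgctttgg
The CLSPN window held 1 E2F match, GCGGGAAA, which begins 5 bases before the start site, and 3 CCAAT boxes. The TIMELESS window held 1 CCAAT box and no exact E2F match. Only exact matches to the letters above were counted in any window, so near matches were not seen. The TOPBP1 window held 1 E2F match, GCGCGAAA, which begins 7 bases before the start site, and no CCAAT box. Among all 35116 promoter windows of this length, 3.31% held the E2F motif and 34.6% the CCAAT box. Windows were found for 9 of the 10 genes, some of which have several, and not for WEE1. An E2F match stood in at least 1 window of 3 genes, CLSPN, TIPIN and TOPBP1, and a CCAAT box in at least 1 window of 7. Counted in the same way, by gene, 3.99% of all 27305 genes with a window held the E2F motif and 39.7% the CCAAT box. A match describes these letters and does not show that a factor binds there.

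**Figure D1:**
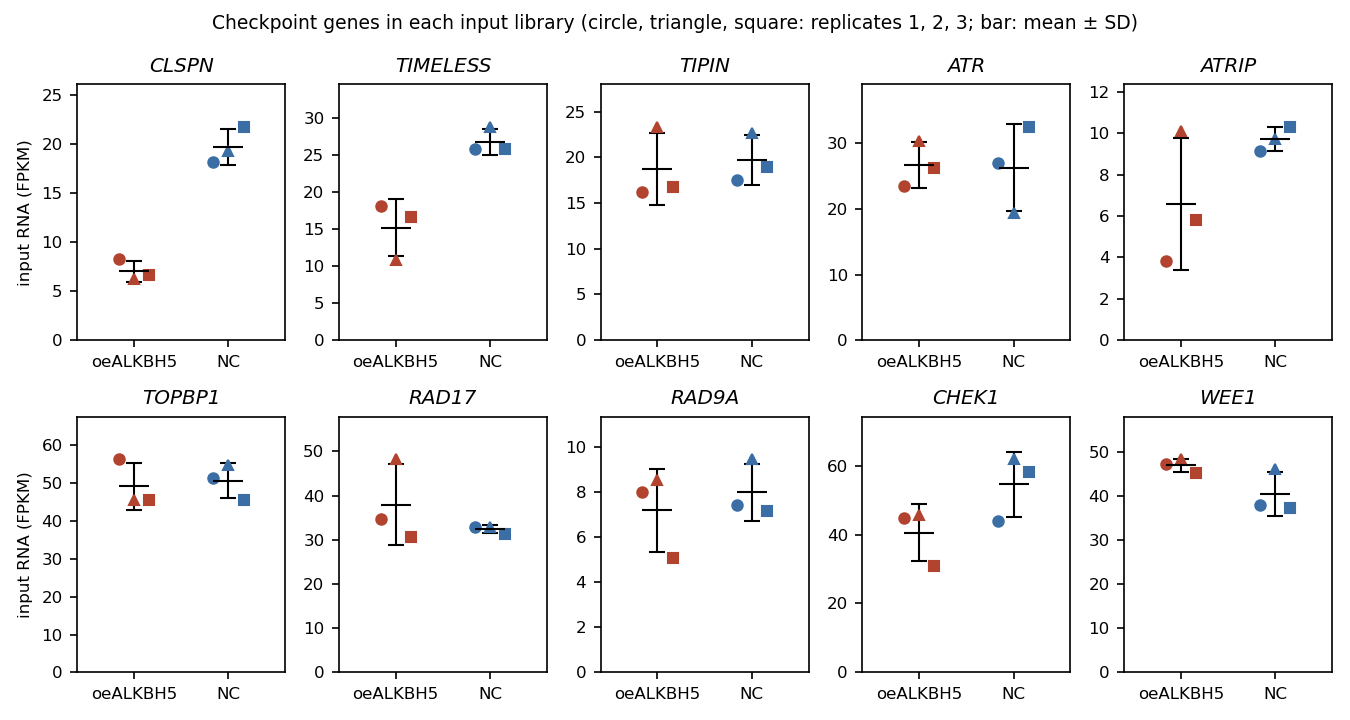
FPKM of the 10 genes in each input library, oeALKBH5 left and NC right, with circles, triangles and squares for replicates 1, 2 and 3 and a bar for the mean ± SD (n = 3 per group). The oeALKBH5 points lie below all NC points for CLSPN and TIMELESS, and the groups overlap for the other 8 genes.

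Of the 10 genes, CLSPN fell in oeALKBH5 cells, none rose, and the other 9 did not pass the test. CLSPN measured 8.25, 6.22 and 6.63 FPKM in oeALKBH5 replicates 1, 2 and 3, against 18.1, 19.3 and 21.7 FPKM in NC replicates 1, 2 and 3. The highest oeALKBH5 library thus lay far below the lowest NC library. The group means were 7.03 ± 1.08 FPKM in oeALKBH5 and 19.7 ± 1.83 FPKM in NC (SD, n = 3 each), a ratio of 0.357. The log2 fold change on the log2(FPKM + 1) scale was -1.37 (SE 0.18, 95% interval -1.78 to -0.96), and limma with Benjamini-Hochberg adjustment over all tested genes gave an adjusted p of 0.0046. Of all tested genes, 5.45% were called in either direction, 2.43% lower and 3.02% higher, so 1 call among 10 genes is too few to read against that background. Only 48 of the 12757 tested genes had a more negative log2 fold change than CLSPN, a gene chosen with earlier results of these data known. A two-sided exact permutation test of CLSPN alone gave p = 0.1, and a design of 3 against 3 reaches no smaller value. An antisense gene, CLSPN-AS1, overlaps CLSPN in the RefSeq annotation. It was not found by its symbol in the expression table, so no value of it is given. In bulk RNA, fewer cells in the phase that makes this mRNA and less of it per cell cannot be told apart.

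TIMELESS and TIPIN form the fork protection complex that travels with claspin and keeps the helicase and polymerases together. TIMELESS measured 18.1, 10.8 and 16.6 FPKM in oeALKBH5 replicates 1, 2 and 3, against 25.8, 28.8 and 25.8 FPKM in NC replicates 1, 2 and 3. All oeALKBH5 libraries lay below all NC libraries. Means were 15.2 ± 3.86 FPKM in oeALKBH5 and 26.8 ± 1.72 FPKM in NC (SD, n = 3 each), with a log2 fold change of -0.81 (95% interval -1.26 to -0.36), which lay just outside the threshold of 0.05 (limma adjusted p = 0.051). TIMELESS passed under 3 of 16 other settings: a filter at a mean of 1 FPKM (adjusted p = 0.0489), median-of-ratios scaling (adjusted p = 0.0468) and array weights (adjusted p = 0.0499). Its partner TIPIN measured 16.2, 23.3 and 16.7 FPKM in oeALKBH5 replicates 1, 2 and 3, against 17.5, 22.7 and 18.9 FPKM in NC replicates 1, 2 and 3. The groups overlapped almost fully, replicate 2 was the highest in both, and the log2 fold change of -0.08 had a 95% interval from -0.50 to 0.34 (limma adjusted p = 0.847). Groups that did not overlap, in either direction, were found for 28.1% of all tested genes and 13.0% lay lower in oeALKBH5, so 2 of 10 genes is close to the background.

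ATR is the apical kinase of the pathway and ATRIP the subunit that brings it to RPA-coated DNA. ATR measured 23.5, 30.4 and 26.2 FPKM in oeALKBH5 replicates 1, 2 and 3, against 27.1, 19.4 and 32.5 FPKM in NC replicates 1, 2 and 3. The NC libraries held both the lowest and the highest value, and the log2 fold change was 0.04 (95% interval -0.41 to 0.49, limma adjusted p = 0.933). ATRIP measured 3.85, 10.1 and 5.8 FPKM in oeALKBH5 replicates 1, 2 and 3, against 9.14, 9.74 and 10.3 FPKM in NC replicates 1, 2 and 3. Replicates 1 and 3 of oeALKBH5 were below every NC library and replicate 2 was within the NC range. ATRIP had a coefficient of variation of 48.9% in oeALKBH5 and 5.87% in NC libraries, and its log2 fold change of -0.58 (95% interval -1.26 to 0.10) did not pass (limma adjusted p = 0.294). It was -0.30 without oeALKBH5 replicate 1 and -0.90 without oeALKBH5 replicate 2. ATRIP overlaps TREX1, which encodes a cytosolic DNA exonuclease, in the RefSeq annotation, so the split of reads between them is uncertain. TREX1 measured 8.55, 17.8 and 16.3 FPKM in oeALKBH5 replicates 1, 2 and 3, against 7.16, 15.9 and 15.7 FPKM in NC replicates 1, 2 and 3, lowest in replicate 1 of both groups. ATRIP was low with TREX1 in replicate 1 of oeALKBH5, and also low in replicate 3 of oeALKBH5, where TREX1 was not. In NC, replicate 1 was the lowest for both genes, narrowly so for ATRIP.

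RAD17 loads the clamp, RAD9A is one of its subunits, and TOPBP1 is the activator that the clamp delivers to ATR. None of the 3 passed the test, and the groups overlapped for each. RAD17 measured 34.8, 48.2 and 30.7 FPKM in oeALKBH5 replicates 1, 2 and 3, against 32.8, 33 and 31.4 FPKM in NC replicates 1, 2 and 3. The NC libraries were within a narrow range, and oeALKBH5 replicate 2 stood above the rest. The log2 fold change of RAD17 was 0.19 (95% interval -0.19 to 0.58, limma adjusted p = 0.539), and was 0.01 without oeALKBH5 replicate 2 and 0.33 without oeALKBH5 replicate 3. RAD17 overlaps AK6, an adenylate kinase gene, which measured 103 ± 6.22 FPKM in oeALKBH5 and 116 ± 6.64 FPKM in NC libraries (SD, n = 3 each) and was not called (limma adjusted p = 0.32). TAF9 also overlaps RAD17 and was not found by its symbol in the expression table. RAD9A measured 8, 8.54 and 5.1 FPKM in oeALKBH5 replicates 1, 2 and 3, against 7.42, 9.47 and 7.16 FPKM in NC replicates 1, 2 and 3. The lowest value was oeALKBH5 replicate 3 and the groups otherwise overlapped, with a log2 fold change of -0.15 (95% interval -0.70 to 0.39, limma adjusted p = 0.757). RAD9A overlaps PPP1CA, a phosphatase catalytic subunit gene that was several times more abundant, at 64.5 ± 4.81 FPKM in oeALKBH5 and 68.7 ± 3.14 FPKM in NC libraries (SD, n = 3 each). TOPBP1 measured 56.3, 45.5 and 45.6 FPKM in oeALKBH5 replicates 1, 2 and 3, against 51.5, 54.8 and 45.6 FPKM in NC replicates 1, 2 and 3. Its interval was among the narrowest of the 10 genes, from -0.34 to 0.24 around a log2 fold change of -0.05 (limma adjusted p = 0.876).

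CHEK1 encodes the effector kinase that claspin presents to ATR, and WEE1 the kinase that puts the inhibitory phosphate on CDK1 and CDK2. CHEK1 measured 44.7, 45.8 and 31 FPKM in oeALKBH5 replicates 1, 2 and 3, against 43.9, 61.8 and 58 FPKM in NC replicates 1, 2 and 3. Replicate 1 of NC lay below replicates 1 and 2 of oeALKBH5, and the other NC libraries lay above all of them. The log2 fold change of CHEK1 was -0.43 (95% interval -0.84 to -0.01), which did not pass after adjustment (limma adjusted p = 0.219), and was -0.25 without oeALKBH5 replicate 3. CHEK1 overlaps ACRV1 in the RefSeq annotation. ACRV1 was at 0 FPKM in every oeALKBH5 library and at 0.816, 0 and 1.2 FPKM in NC replicates 1, 2 and 3, and was not tested. WEE1 measured 47.3, 48.4 and 45.4 FPKM in oeALKBH5 replicates 1, 2 and 3, against 38, 46.2 and 37.4 FPKM in NC replicates 1, 2 and 3. The oeALKBH5 libraries were tight and NC replicate 2 reached their range, with a log2 fold change of 0.22 (95% interval -0.06 to 0.49, limma adjusted p = 0.332).

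**Figure D2:**
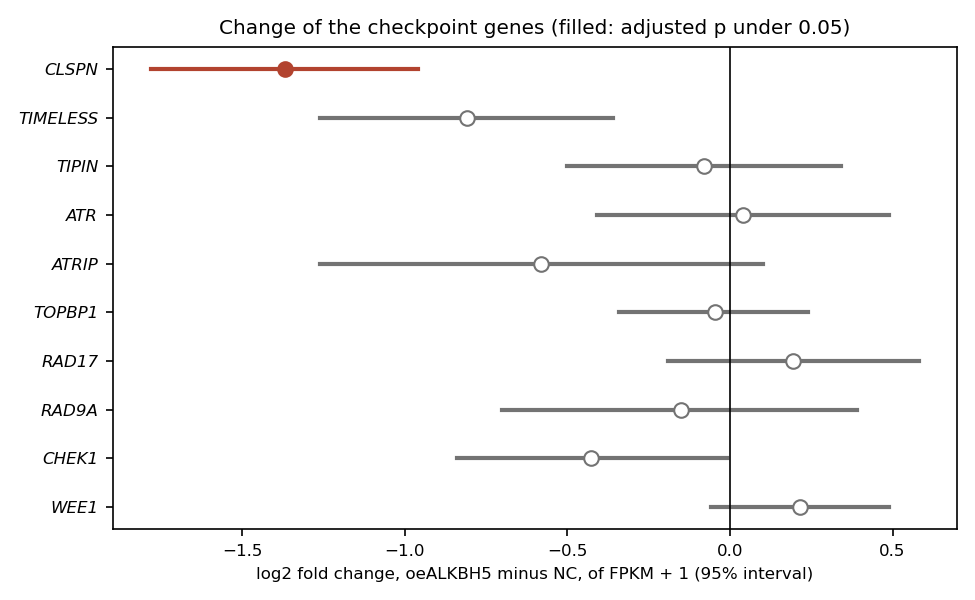
Log2 fold change of each gene, oeALKBH5 minus NC, on the log2(FPKM + 1) scale, as a point with its 95% interval from limma, filled where the adjusted p was under 0.05. CLSPN, at -1.37, is the only filled point, and the other 9 run from -0.81 for TIMELESS to 0.22 for WEE1.

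Over the 10 genes 7 log2 fold changes were below 0 and 3 above, with a median of -0.12, where the median of all tested genes was 0.02 and 47.7% of them were below 0. The order of levels, compared per length in FPKM, placed CLSPN lower in oeALKBH5 than in NC. In oeALKBH5 libraries the order was TOPBP1 at 49.1, WEE1 at 47, CHEK1 at 40.5, RAD17 at 37.9, ATR at 26.7, TIPIN at 18.7, TIMELESS at 15.2, RAD9A at 7.22, CLSPN at 7.03 and ATRIP at 6.6 FPKM. In NC libraries it was CHEK1 at 54.5, TOPBP1 at 50.6, WEE1 at 40.5, RAD17 at 32.4, TIMELESS at 26.8, ATR at 26.4, CLSPN at 19.7, TIPIN at 19.7, ATRIP at 9.72 and RAD9A at 8.02 FPKM. CLSPN thus stood with RAD9A and ATRIP, the scarcest of the set, in oeALKBH5 cells, and beside TIPIN and ATR in NC cells. Neighbours whose libraries did not overlap were RAD17 and ATR, ATR and TIPIN, and TIMELESS and RAD9A in oeALKBH5, and WEE1 and RAD17, RAD17 and TIMELESS, and TIPIN and ATRIP in NC. All other neighbours in each order overlapped.

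CLSPN was also set against each other gene as its FPKM per FPKM of each partner within a library, which removes any scaling of the library. CLSPN per TOPBP1 measured 0.147, 0.137 and 0.145 in oeALKBH5 replicates 1, 2 and 3, against 0.351, 0.352 and 0.476 in NC replicates 1, 2 and 3. CLSPN per CHEK1 measured 0.184, 0.136 and 0.214 in oeALKBH5 replicates 1, 2 and 3, against 0.412, 0.313 and 0.374 in NC replicates 1, 2 and 3. CLSPN per TIMELESS, the partner with the most negative log2 fold change of its own, measured 0.456, 0.576 and 0.399 in oeALKBH5 replicates 1, 2 and 3, against 0.7, 0.671 and 0.841 in NC replicates 1, 2 and 3. For 8 of the 9 partners every oeALKBH5 ratio lay below every NC ratio. All 9 ratios share the CLSPN values, which separate the groups by themselves, so they are not 9 separate results. The share of all genes whose ratio to CLSPN would separate the groups was not computed. ATRIP was the exception, with 2.14, 0.613 and 1.14 CLSPN per ATRIP in oeALKBH5 replicates 1, 2 and 3, against 1.98, 1.98 and 2.11 in NC replicates 1, 2 and 3. The change of the log2 ratio, computed on FPKM + 1, was smallest for TIMELESS, at -0.56, and largest for WEE1, at -1.58, with -0.94 for CHEK1, -1.29 for TIPIN and -1.41 for ATR. A two-sided exact permutation test gave p = 0.1 for each of the 8, the smallest the design allows, and 0.113 after Benjamini-Hochberg adjustment over the 9 ratios. The ratio to ATRIP gave an exact p of 0.3. No ratio could pass 0.05 in this design.

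**Figure D3:**
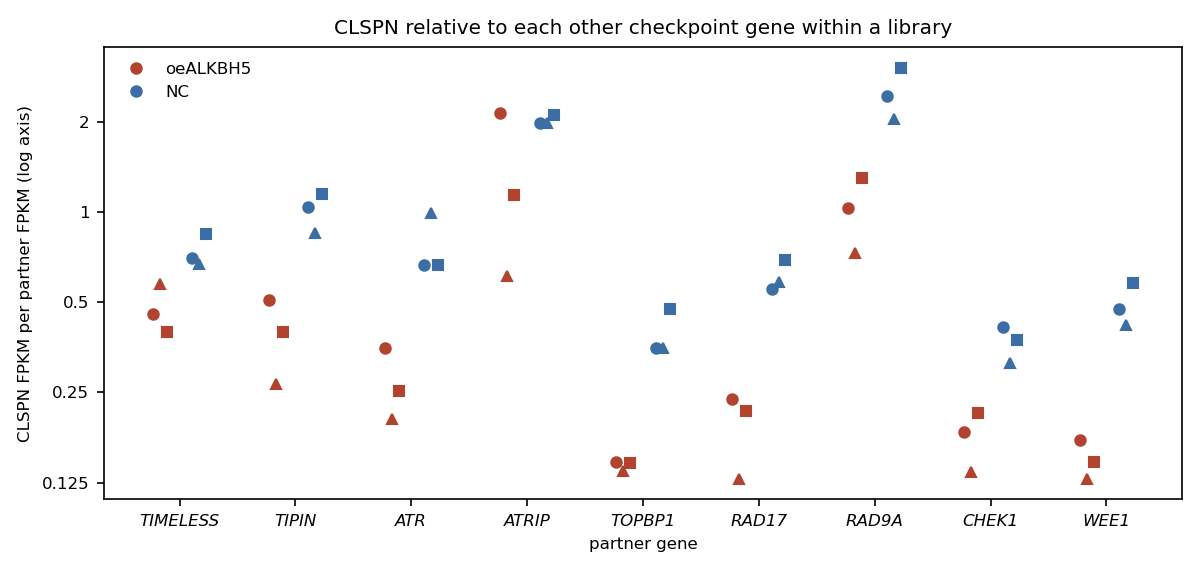
CLSPN FPKM divided by the FPKM of each partner gene in the same library, on a log axis, with oeALKBH5 left and NC right of each partner and circles, triangles and squares for replicates 1, 2 and 3. The groups are separate for 8 of 9 partners and overlap for ATRIP, where oeALKBH5 replicate 1 reached 2.14.

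Genes with a profile most like that of CLSPN over the 6 libraries, by Pearson correlation of log2(FPKM + 1) across 9655 other genes averaging at least 5 FPKM, were CCNE2 (0.9988), RPS7 (0.9987), HNRNPA2B1 (0.9971), PCNA (0.9959) and H2BC12 (0.9958). CCNE2 encodes a G1/S cyclin, RPS7 a ribosomal protein, HNRNPA2B1 an RNA-binding protein, PCNA the sliding clamp of replication and H2BC12 a histone H2B. With 6 points in separate groups, such values mostly describe the step between groups. The step itself differed in size: the log2 fold change was -0.89 for CCNE2, -0.22 for RPS7, -1.04 for HNRNPA2B1, -1.14 for PCNA and -0.89 for H2BC12. RPS7, called at a limma adjusted p of 0.0307, was at -0.10 with quantile normalization (adjusted p = 0.316). With any 1 library left out its log2 fold change stayed between -0.24 and -0.21 and the call was lost (adjusted p 0.0537 to 0.126). Within the checkpoint set, TIMELESS was the most alike, at 0.92, with 400 other genes more alike, followed by CHEK1 at 0.72, and WEE1 was the least, at -0.74.

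**Figure D4:**
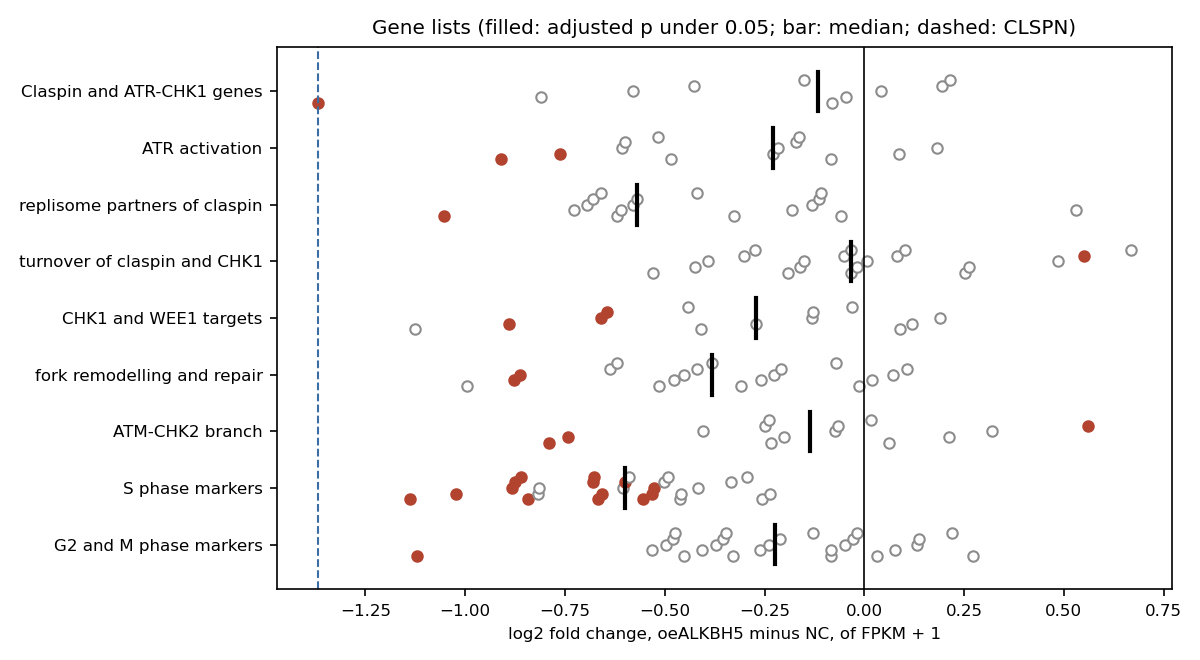
Log2 fold changes, oeALKBH5 minus NC on the log2(FPKM + 1) scale, of the 10 checkpoint genes and of 8 lists of related genes, 1 point per tested gene, filled where the limma adjusted p was under 0.05, with a black bar at each median and a dashed line at CLSPN. No gene of the 8 lists lies beyond CLSPN, and the S phase markers all lie below 0.

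Other genes of the pathway were read from 8 lists of 150 genes, of which 147 were tested. The test called 25 of these lower and 2 higher in oeALKBH5 and left 120 uncalled, where 2.43% of all tested genes were called lower, 3.02% higher and 47.7% had a log2 fold change below 0. None had a more negative log2 fold change than CLSPN. Among 13 tested genes of ATR activation, 2 fell and none rose, with a median log2 fold change of -0.23 where all tested genes had 0.02. Both are subunits of the clamp loader that RAD17 shares with replication: RFC5 measured 20.3 ± 1.8 FPKM in oeALKBH5 and 39 ± 1.38 FPKM in NC, and RFC2 25.1 ± 6.02 FPKM in oeALKBH5 and 42.4 ± 1.08 FPKM in NC (SD, n = 3 each). The other small subunits, RFC3 and RFC4, had log2 fold changes of -0.60 and -0.49 and did not pass (limma adjusted p = 0.0553 and 0.0587), although RFC3 passed with median-of-ratios scaling (adjusted p = 0.0477) and without oeALKBH5 replicate 1 (adjusted p = 0.0347). HUS1, a partner of RAD9A in the clamp, measured 19.3 ± 3.31 FPKM in oeALKBH5 and 29.8 ± 3.96 FPKM in NC and did not pass (limma adjusted p = 0.0786). Among 17 replisome partners of claspin, 1 fell, 16 did not pass, 16 had a log2 fold change below 0, and the median was -0.57. The 1 was MCM10, which helps activate the replicative helicase, at 15.5 ± 4.17 FPKM in oeALKBH5 and 32.7 ± 5.76 FPKM in NC (SD, n = 3 each). Next by p were GINS1 and CDC45, parts of the replicative helicase, and CDC7, the origin-firing kinase that also phosphorylates claspin, with log2 fold changes of -0.73, -0.62 and -0.68 that did not pass (limma adjusted p = 0.058, 0.0675 and 0.0627).

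Of 20 tested genes of claspin and CHK1 turnover, 1 rose, none fell, and the median log2 fold change was -0.03, so the share called was close to the 5.45% of all tested genes called in either direction. The 1 was CDC27, a subunit of the anaphase-promoting complex, at 67.3 ± 8.95 FPKM in oeALKBH5 and 45.5 ± 4.09 FPKM in NC (SD, n = 3 each). CUL4B, a ubiquitin ligase scaffold, measured 77.2 ± 9.35 FPKM in oeALKBH5 and 54.7 ± 4.24 FPKM in NC and did not pass (limma adjusted p = 0.051). CUL4B passed under 4 of 16 other settings: a filter at a mean of 1 FPKM (adjusted p = 0.0498), quantile normalization (0.0392), the same sum in each library (0.0433) and array weights (0.05 after rounding). PLK1, the kinase that marks claspin for degradation, measured 36.1 ± 7.96 FPKM in oeALKBH5 and 37.6 ± 13.7 FPKM in NC. Of 5 deubiquitinase genes in the list, those with the smallest p were USP7, at 58.9 ± 6.74 FPKM in oeALKBH5 and 79.2 ± 5.39 FPKM in NC, and USP28, at 32.7 ± 6.88 FPKM in oeALKBH5 and 20 ± 2.66 FPKM in NC, and neither passed (limma adjusted p = 0.0707 and 0.0754), although USP28 passed without oeALKBH5 replicate 3 (adjusted p = 0.0479). USP9X and USP20 had log2 fold changes of 0.26 and 0.25 and did not pass (limma adjusted p = 0.235 and 0.661), and USP29 was listed at 0 in every library. The list of CHK1 and WEE1 targets, 13 genes, also holds cyclin genes and PKMYT1, which are not themselves targets in this sense. Of the 13, 3 fell, none rose and the median was -0.27. The cyclin gene CCNE2 measured 14.8 ± 1.5 FPKM in oeALKBH5 and 28.3 ± 1.33 FPKM in NC. CDK2 measured 29.5 ± 4.96 FPKM in oeALKBH5 and 46.7 ± 2.05 FPKM in NC. The chromatin kinase gene TLK1 measured 47.4 ± 8.55 FPKM in oeALKBH5 and 74.3 ± 9.38 FPKM in NC (SD, n = 3 each). PKMYT1, the membrane-bound relative of WEE1, had a log2 fold change of -1.13 that did not pass (limma adjusted p = 0.0592) but passed without NC replicate 1 (adjusted p = 0.00862).

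Among 19 genes of fork remodelling and repair, FANCD2 and BRCA1 fell, with log2 fold changes of -0.88 and -0.86, and none rose. The other 17 did not pass, 16 of the 19 had a log2 fold change below 0, and the median was -0.38. For all tested genes the shares were 2.43% called lower, 3.02% called higher and 47.7% below 0, with a median of 0.02. FANCD2 acts in crosslink repair and fork protection, and BRCA1 in homologous recombination. In the parallel ATM-CHK2 branch of 14 genes, the histone variant gene H2AX and NBN fell, with log2 fold changes of -0.79 and -0.74, the CDK inhibitor gene CDKN1A rose by 0.56 and 11 did not pass, with a median of -0.14. S phase markers, which mark cells copying DNA, were lower in oeALKBH5 in many cases. Of 27 tested, 14 fell, none rose, all 27 were below 0 and the median log2 fold change was -0.60. The smallest p-values were those of PCNA at 96 ± 5.86 FPKM in oeALKBH5 and 213 ± 14.3 FPKM in NC, the thymidylate synthase gene TYMS at 55.6 ± 3.94 FPKM in oeALKBH5 and 114 ± 11.3 FPKM in NC, the helicase subunit gene MCM3 at 38 ± 1.31 FPKM in oeALKBH5 and 69.7 ± 3.18 FPKM in NC, and the ribonucleotide reductase gene RRM2 at 119 ± 3.43 FPKM in oeALKBH5 and 190 ± 10.9 FPKM in NC (SD, n = 3 each). Their median level per library was 40.1, 37.6 and 36 FPKM in oeALKBH5 replicates 1, 2 and 3, against 57.8, 62.2 and 56.1 FPKM in NC replicates 1, 2 and 3, with no overlap. The G2 and M phase markers had medians of 39.7, 30.7 and 32.2 FPKM in oeALKBH5 replicates 1, 2 and 3, against 32.8, 44.7 and 43.3 FPKM in NC replicates 1, 2 and 3, which overlapped. Of 26 G2 and M phase markers, 1 fell, the kinetochore motor gene CENPE with a log2 fold change of -1.12, and none rose. The other 25 did not pass, and the median was -0.22. Of the 26, 20 had a log2 fold change below 0, where 47.7% of all tested genes did. With 1 call among 26 genes, this list is too small to read against the 2.43% of all tested genes called lower. The part of a shift in the share of cells in S phase in the CLSPN result was not tested. Of the 14 S phase genes that fell, 10 were found in the promoter table and 7 of these held the E2F motif in a window, where 3.99% of all genes with a window did. The share was not computed for the S phase genes that did not pass, so it does not set the genes that fell apart from their list. A part of E2F in these changes was not tested.

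Many of these calls did not hold with 5 libraries in place of 6, whichever of several libraries was left out, while their log2 fold changes stayed of similar size. Those of RFC2 ran from -0.93 to -0.60 over the 6 fits, of MCM10 from -1.20 to -0.83, of CDK2 from -0.77 to -0.53, of TLK1 from -0.78 to -0.55 and of NBN from -0.83 to -0.61. Over the 8 lists the 25 lower calls became 15 without oeALKBH5 replicate 2, 11 without oeALKBH5 replicate 3, 15 without NC replicate 1, 9 without NC replicate 2 and 6 without NC replicate 3, and the 14 S phase calls became 8, 7, 8, 6 and 5 in the same fits. The calls of RFC2, MCM10, CDK2 and TLK1 were each lost without oeALKBH5 replicate 2, oeALKBH5 replicate 3, NC replicate 1, NC replicate 2 and NC replicate 3 in turn, with their highest adjusted p, 0.133, 0.124, 0.122 and 0.154, without NC replicate 3. That of CDC27 was lost without oeALKBH5 replicate 1, oeALKBH5 replicate 3 and each NC replicate (highest adjusted p 0.154), and that of CDKN1A without each oeALKBH5 replicate, NC replicate 2 and NC replicate 3 (highest 0.118). The call of FANCD2 was lost without oeALKBH5 replicate 1, oeALKBH5 replicate 3, NC replicate 1 and NC replicate 3 (highest 0.0762), that of BRCA1 without oeALKBH5 replicate 3, NC replicate 2 and NC replicate 3 (highest 0.104), and that of NBN in all 6 fits (highest 0.135). Leaving out NC replicate 2 or NC replicate 3 put H2AX at an adjusted p of 0.0549 or 0.0544 and CENPE at 0.0561 or 0.0662, and leaving out NC replicate 3 put CCNE2 at 0.0574. Some list medians also depended on 1 library. The median of the replisome partners moved from -0.57 to -0.38 without oeALKBH5 replicate 2, and that of ATR activation from -0.23 to -0.33 without oeALKBH5 replicate 1. That of the CHK1 and WEE1 targets was -0.13 without NC replicate 2, and that of the G2 and M phase markers ran from -0.33 when oeALKBH5 replicate 1 was dropped to -0.11 when oeALKBH5 replicate 3 was. Dropping oeALKBH5 replicate 1 or 2 put the ATM-CHK2 median at -0.23 or -0.04, and dropping NC replicate 1 or 2 put it at -0.07 or -0.06. The turnover median stayed near 0, from -0.07 without NC replicate 3 to 0.01 without oeALKBH5 replicate 3, and the ATR activation median was -0.49 with a pseudocount of 0.1 and -0.36 with the filter at 1 FPKM. CLSPN, RFC5, PCNA, TYMS, MCM3 and RRM2 kept their calls in all 6 fits that left out 1 library. For CLSPN the adjusted p in these fits ran from 0.0117 without oeALKBH5 replicate 1 to 0.0352 without NC replicate 3, and its log2 fold change from -1.48 to -1.30.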

How the data were processed

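Input RNA of 6 libraries was used, 3 per group, grouped by the genotype in the labels. Libraries were directional and made from RNA depleted of ribosomal RNA, per the labels' protocols. Cufflinks, Cuffdiff, HISAT2 2.0.4, cutadapt 1.9.3 and the build hg19 are named, without role or order, in the submitters' processing notes. The values deposited by the authors are taken as FPKM, which follows from those tools and the values, since the table names no unit. The annotation used, and whether reads were counted by strand, are not given in the sources used here, so overlapping genes are uncertain.

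Of 20308 genes, 19434 had a symbol in the tables used, and 12757 with a mean of at least 0.5 FPKM were tested. Values were transformed to log2(FPKM + 1), which understates the change of low genes, and tested by limma 3.58.1 (R 4.3.3), using the intensity trend and Benjamini-Hochberg adjustment at 0.05. Scipy 1.17.1 in Python 3.11.15 gave exact permutation tests, two-sided. The fit was tested on simulated data with independent errors for each gene and library, which cannot show dependence on single libraries. Values above 0 and under 1e-06, which can be failed estimates, were found in 431 genes and in 0 of the genes named.

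Genes named are the 10 checkpoint genes, up to 4 of each list with the smallest p, the 5 most like CLSPN, ALKBH5, and genes beside a checkpoint gene. PLK1, HUS1, KRT8, USP9X, USP20 and USP29 fall outside this rule and were named after their values were seen. Some genes the rule names are not described. The members and lists were chosen with earlier results of these data known. No pairing of the libraries by replicate number was seen, and whether cultures or batches were shared is not known. Alternatives were the pseudocount, filter, scaling, trend, weights, a replicate block and leaving out each library. The 6 peak lists were left out, since no annotation of hg19 was used here.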

Additional observations from a re-analysis of the deposited data

How the results depend on the processing

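CLSPN kept its direction and its call under all 16 alternatives, with log2 fold changes from -1.48 to -1.30 and adjusted p from 0.00407 to 0.0352. The checkpoint genes called lower were 2 in place of 1 under the filter at 1 FPKM, median-of-ratios scaling and array weights, where TIMELESS passed. The whole table gave 695 calls, 421 with no filter, 270 without the trend and 232 to 436 with 1 library left out. Over the 8 lists the 25 lower calls were 13 with no filter, 7 without the trend and 6 to 22 with 1 library left out, and the 2 higher calls were 0 with no filter, 0 without the trend and 0 to 1 with 1 library left out. Leaving out a library leaves fewer samples, and the cause of the other changes was not tested.

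No pairing of the libraries by replicate number was seen. Same-numbered deviations from the group means correlated at -0.017, -0.0205 and 0.0315, and oeALKBH5 replicate 1 correlated best with NC replicate 2. Deviations within a group cancel for each gene, so these values cannot settle whether cultures or batches were shared. With the replicate block 344 genes were called, 14 list genes were lower and 0 higher, and CLSPN stood at an adjusted p of 0.0271.

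Differences near 0 changed sign when 1 library was left out. ATR ran from -0.16 (without NC replicate 2) to 0.20, with -0.05 without oeALKBH5 replicate 2, TIPIN from -0.24 to 0.02, with 0.01 without oeALKBH5 replicate 1, TOPBP1 from -0.15 to 0.01, with 0.00 without oeALKBH5 replicate 3, RAD9A from -0.27 to 0.05 and TREX1 from -0.21 to 0.44, with -0.04 without oeALKBH5 replicate 2. PLK1, at -0.02 in the fit reported, ran from -0.25 to 0.25, with 0.11 without oeALKBH5 replicate 2, 0.02 without oeALKBH5 replicate 3, 0.00 with the same sum in each library and 0.05 with array weights. With array weights ATR stood at -0.03. Absolute depth is unknown, so no detection limit is given.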
